A study of Mus musculus with 12 samples.

Results

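Polyamines are small, positively charged molecules that every dividing cell needs, and 10 mouse genes that make, destroy, restrain or use them are described here across Senp1-mutant and normal CD8+ T cells. The 10 are Odc1, Srm, Sms, Amd1, Sat1, Smox, Azin1, Oaz1, Oaz2 and Dhps, taken by name out of 56691 gene IDs in the count table. All 10 mapped to exactly 1 ID and all 10 had enough counts to be tested, as did 15935 genes in all. They are grouped by function, and the list was drawn up with earlier results of these data known.

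The cells were naive CD8+ T cells from mouse spleen, sequenced as bulk RNA in 4 groups of 3 libraries. Senp1 CKO cells and Senp1 WT cells were either left unstimulated (0 h) or cultured for 48 h with anti-CD3 at 5 µg/ml, which stands in for antigen, and anti-CD28 at 1 µg/ml, which stands in for costimulation. Senp1 removes the small protein tag SUMO from other proteins. No group was cultured for 48 h without the antibodies, so stimulation and time in culture cannot be told apart. All 4 groups share the same organ and cell type, and the labels state no further allele or agent. Neither the Cre driver nor the deleted exons are named in the sources used here, so it is unknown whether reads from the deleted part weigh on the Senp1 level. Nor do the labels tie the 3 libraries of a group to separate mice, and the p-values therefore measure only the spread between libraries, which may be technical.

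Ornithine decarboxylase (Odc1) opens the pathway by turning ornithine into putrescine. Spermidine synthase (Srm) and spermine synthase (Sms) then each add an aminopropyl group, which comes from S-adenosylmethionine after the enzyme encoded by Amd1 has decarboxylated it. Antizymes (Oaz1, Oaz2) bind Odc1 protein and hand it to the proteasome, and the antizyme inhibitor Azin1, an inactive relative of Odc1, draws antizyme away. Sat1 acetylates and Smox oxidises finished polyamines, and Dhps spends spermidine to place the residue hypusine on the translation factor eIF5A. Activated T cells are known to raise polyamine synthesis, and the transcription factor MYC is a known activator of Odc1.

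Several of these proteins are set after transcription, which the RNA counts below do not show. Antizyme is made only when the ribosome slips by 1 base at the stop of a short first reading frame, and it does so more often when polyamines are plentiful. The slip sites of both antizyme mRNAs are shown because they mark this step. They are read from GENCODE M21 transcripts (mouse chromosome 10 for Oaz1, chromosome 9 for Oaz2), and the capitals mark the last codon of the first frame and its stop:
Oaz1: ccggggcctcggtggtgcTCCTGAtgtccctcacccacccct
Oaz2: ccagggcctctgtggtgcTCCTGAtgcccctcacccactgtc
After the shift translation could run on for 151 codons in the Oaz1 transcript used and for 36 codons in the Oaz2 one. Only 1 transcript was read per gene, so these numbers need not be the lengths of the antizyme proteins. Amd1 carries a very short upstream frame that is known to hold back its translation when polyamines are high. It starts 14 bases from the transcription start in the RefSeq window (GRCm38.p6, chromosome 10), and its start and stop are in capitals:
Amd1: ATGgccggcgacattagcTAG
The same letters stand in the window of Amd2, a near-identical retrogene.

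Each library held between 15900529 and 22427151 counts. Levels below are CPM, that is, counts put on a shared library size after TMM scaling. They are relative to the other RNA of a library. A change in total RNA per cell between the times is therefore not seen, and higher or lower means a relative level. Senp1 itself averaged 70.3 ± 4.1 CPM in CKO cells and 162 ± 10.5 CPM in WT cells at 48 h, and 57.0 ± 2.6 CPM in CKO cells against 82.4 ± 4.0 CPM in WT cells at 0 h (SD, n = 3 each). It was lower in CKO at both times (edgeR adjusted p = 5.43e-10 at 48 h and 6.26e-05 at 0 h), as the labels have it. WT replicate 1 stood apart from replicates 2 and 3 at both times: its counts differed from theirs by a chi-square per gene of 16.6 to 20.9 at 48 h, where the other pair differed by 4.75, and of 9.42 to 11.4 at 0 h, where the other pair differed by 7.78. CKO 0 h replicate 2 stood apart too, at 8.97 to 8.98 against 4.67 for the other pair. It was the highest library of its group for Srm and the lowest for Myc.

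The 6 CD8 T-cell markers Cd8a, Cd8b1, Cd3e, Cd3d, Cd3g and Trac were present in every library, with summed levels of 1293 to 1355 CPM in CKO and 1536 to 1587 CPM in WT at 48 h, and 3061 to 3256 CPM in CKO and 3158 to 3357 CPM in WT at 0 h. All 6 CD8 markers were called lower at 48 h than at 0 h in both genotypes. Over all genes tested, 38.5% were called higher and 39.2% lower at 48 h in CKO, and 38.7% and 39.1% in WT. Markers of most other cell types were lower at 48 h too. The 10 B-cell markers summed to 292 to 298 CPM in CKO and 308 to 361 CPM in WT at 48 h, against 784 to 863 CPM in CKO and 913 to 1695 CPM in WT at 0 h, with WT 0 h replicate 1 at the top. At 48 h against 0 h, 9 of these 10 were called lower in CKO and 10 in WT, none was at 0, and 8 and 7 of the 8 myeloid markers were called lower. Their part in the changes over time was not tested. The 8 myeloid markers summed to at most 15.5 CPM in CKO and 16.9 CPM in WT at 48 h, and to at least 61.6 CPM in CKO and 63.5 CPM in WT at 0 h. The 5 CD4 T-cell markers summed to more at 48 h, 511 to 700.4 CPM in CKO and 645 to 1009 CPM in WT, against 391 to 468 CPM in CKO and 364 to 425 CPM in WT at 0 h, although 1 was called higher and 2 lower in CKO, and 1 higher and 1 lower in WT. Of 6 NK-cell markers 1 was called higher and 5 lower in each genotype, and they summed to 169 to 212 CPM in CKO and 236 to 273 CPM in WT at 48 h, against 206 to 394 CPM in CKO and 208 to 243 CPM in WT at 0 h. Of 6 neutrophil markers 4 were at 0 in each 48 h group and 1, Ly6g, in each 0 h group, and both tested ones were lower at 48 h in both genotypes, as were 5 (CKO) and 6 (WT) of 6 tested red-cell and platelet markers. Between genotypes, 2 of the 6 CD8 markers were called lower in CKO at 48 h, beside 2.19% of all genes tested, with no marker of another cell type called. At 0 h, 1 CD8 and 1 B-cell marker were lower in CKO, beside 3.38% of all genes tested. In the same comparison 1 NK-cell marker was higher in CKO, beside 4.10%. In bulk RNA, fewer cells of a type and less RNA per cell cannot be told apart.

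At 48 h Odc1, Srm and Sms, 3 of the 4 synthesis enzymes, were higher than at 0 h in both genotypes, while Amd1 was lower and neither Oaz1 nor Sat1 passed the test. In all, 5 of the 10 polyamine genes were higher in CKO cells (Odc1, Srm, Sms, Azin1, Dhps) and 2 were lower (Amd1, Oaz2). In WT cells 6 were higher (the same 5 and Smox) and 1 was lower (Amd1). Calls are at an edgeR adjusted p under 0.05. Most genes differed between the times: of all genes tested, 38.5% were called higher and 39.2% lower in CKO, and 38.7% and 39.1% in WT. The share of polyamine genes called, 7 of 10 in each genotype, is therefore near the 77.7% (CKO) and 77.9% (WT) of all genes. Their median log2 change was 0.33 in CKO and 0.65 in WT, beside -0.04 and -0.03 over all genes tested. The libraries of the 2 times did not overlap for 8 of the 10 in CKO and for 7 in WT, beside 81.0% and 79.4% of all genes tested. When a log2 change of at least 1 was asked for, 1 of the 10, Srm, was called higher in each genotype, beside 17.6% (CKO) and 17.8% (WT) of all genes, and 0 were called lower, beside 18.5% and 18.8%.

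**Figure D1:**
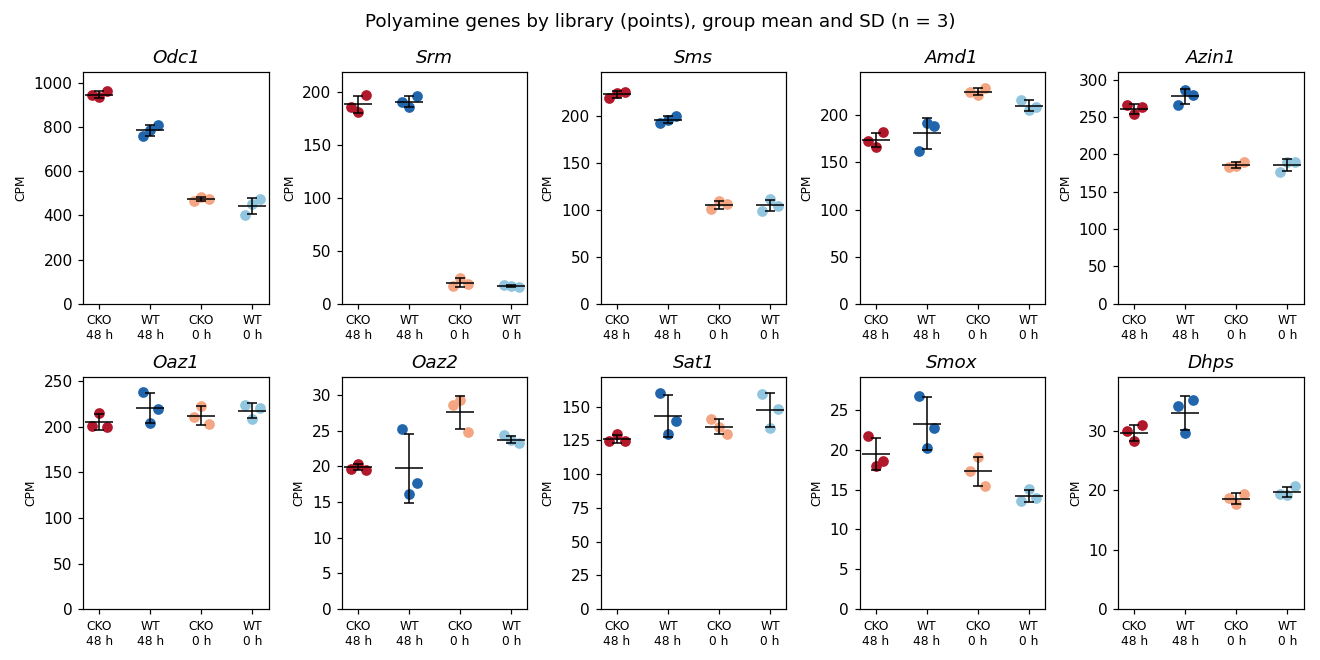
CPM of the 10 polyamine genes in each library (points) with the group mean and SD (n = 3), each panel on its own axis from 0, in the order CKO 48 h, WT 48 h, CKO 0 h, WT 0 h. Odc1, Srm, Sms, Azin1 and Dhps are higher at 48 h in every library of both genotypes, Amd1 is lower, and WT 48 h replicate 1 lies apart for Oaz2, at 25.3 CPM.

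Srm, which makes spermidine, changed far more than any other polyamine gene. It had 185, 181 and 197 CPM in CKO cells at 48 h against 16.5, 24.7 and 19.0 CPM in CKO cells at 0 h. In WT cells it had 191, 185 and 196 CPM at 48 h against 17.6, 17.1 and 16.1 CPM at 0 h. No library at 48 h came near any at 0 h. The rise was 9.37-fold in CKO (log2 change 3.23 ± 0.10 SE, edgeR adjusted p = 1.95e-15) and 11.2-fold in WT (3.49 ± 0.10, edgeR adjusted p = 7.15e-16).

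Odc1, the first enzyme, had 943, 934 and 961 CPM in CKO cells at 48 h against 465, 481 and 475.5 CPM in CKO cells at 0 h. WT cells had 759, 788 and 808 CPM at 48 h against 401, 451 and 472 CPM at 0 h. The lowest 48 h library was well above the highest 0 h library in both genotypes. The fitted change was 2.0-fold in CKO (log2 change 1.00 ± 0.06 SE, edgeR adjusted p = 8.77e-12) and 1.78-fold in WT (0.83 ± 0.06, edgeR adjusted p = 1.48e-10).

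Sms, which makes spermine, had 220, 225 and 226 CPM in CKO cells at 48 h against 101, 110 and 107 CPM in CKO cells at 0 h. WT cells had 193, 196 and 200.5 CPM at 48 h against 99.3, 111 and 104 CPM at 0 h. The groups did not overlap, and the log2 change was 1.08 ± 0.06 (SE) in CKO and 0.90 ± 0.06 in WT (edgeR adjusted p = 1.77e-12 and 2.81e-11). The split of reads between Sms and a processed pseudogene on the same chromosome, X, is uncertain: the 1101 bases of Sms-ps are 100% identical to bases 335 to 1435 of the longest Sms transcript, with 0 mismatches. Sms-ps was given 7764 counts over all libraries, equal to 22.0% of the 35221 counts of Sms. Reads from that stretch cannot be told apart, and Sms-ps was higher at 48 h as well, at 58.2 ± 3.2 CPM in CKO against 16.1 ± 1.4 CPM at 0 h, and at 48.8 ± 3.5 CPM in WT against 14.2 ± 1.2 CPM at 0 h (SD, n = 3 each). With both rows added together, an alternative chosen after seeing the data, the log2 change of Sms was 1.21 in CKO and 1.04 in WT.

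Amd1, which supplies the aminopropyl donor, went the other way. It had 172, 167 and 182 CPM in CKO cells at 48 h against 224, 222 and 229 CPM in CKO cells at 0 h, and 162, 192 and 189 CPM in WT cells at 48 h against 216, 205 and 209 CPM in WT cells at 0 h. Every 48 h library lay below every 0 h library of its genotype. It fell by 0.37 ± 0.06 (SE) on the log2 scale in CKO (edgeR adjusted p = 3.36e-05) and by 0.22 ± 0.06 in WT (edgeR adjusted p = 0.00481). The WT call was lost with all libraries kept when no count filter was used (edgeR adjusted p = 0.0505). It was also lost without replicate 1, the lowest of the 3 at 48 h: the log2 change was -0.12 (edgeR adjusted p = 0.0532), and it was -0.11 (0.125) without WT replicate 1 of both times. Amd2 is 99.6% identical to Amd1 over 3202 bases and was given 0.908% as many counts, so the split between them is uncertain.

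Among the regulators of Odc1 protein, the RNA of the inhibitor of antizyme rose and the RNA of the antizymes did not. Azin1 had 266, 254 and 263 CPM in CKO cells at 48 h against 182, 185 and 190 CPM at 0 h, and 267, 286 and 280 CPM in WT cells at 48 h against 176, 190.1 and 189.5 CPM at 0 h. The times did not overlap in either genotype, and the log2 change was 0.49 ± 0.06 (SE) in CKO and 0.58 ± 0.06 in WT (edgeR adjusted p = 1.31e-07 and 1.05e-08).

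Oaz1, the antizyme with the higher counts, had 200.6, 215 and 199.7 CPM in CKO cells at 48 h against 211, 223 and 203 CPM at 0 h. WT cells had 238, 205 and 220 CPM at 48 h against 224, 209 and 220.4 CPM at 0 h. The times overlapped in both genotypes. The log2 change was -0.05 (95% interval -0.18 to 0.09) in CKO and 0.02 (-0.11 to 0.16) in WT (edgeR adjusted p = 0.489 and 0.769), and the WT sign turned under other scalings.

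Oaz2, the second antizyme, had 19.7, 20.4 and 19.5 CPM in CKO cells at 48 h against 28.5, 29.2 and 24.9 CPM in CKO cells at 0 h. In WT cells it had 25.3, 16.2 and 17.7 CPM at 48 h against 24.3, 23.6 and 23.2 CPM at 0 h. The CKO libraries were apart by time, and in WT only replicate 1 at 48 h reached the 0 h range. The log2 change was -0.47 ± 0.13 (SE) in CKO (edgeR adjusted p = 0.00253) and -0.27 ± 0.13 in WT (edgeR adjusted p = 0.0616). Without WT 48 h replicate 1 the WT change passed the threshold, at an edgeR adjusted p of 0.000499, and it did so too without WT replicate 1 of both times, at 0.00159, with DESeq2, at an adjusted p of 0.0449, and with edgeR on median-of-ratios factors, at 0.0382.

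Of the 2 catabolic genes, Smox was called, in WT cells, and Sat1 was not. Sat1, which acetylates spermidine and spermine for export or breakdown, had 124, 129 and 125 CPM in CKO cells at 48 h against 141, 135 and 130 CPM at 0 h. WT cells had 160.3, 129.7 and 139.7 CPM at 48 h against 159.5, 134 and 148 CPM at 0 h. Neither difference passed the test (log2 change -0.10 in CKO, 95% interval -0.26 to 0.06, and -0.04 in WT, -0.20 to 0.12; edgeR adjusted p = 0.242 and 0.629).

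Smox, which oxidises spermine back to spermidine, had 21.8, 18 and 18.6 CPM in CKO cells at 48 h against 17.4, 19.1 and 15.4 CPM at 0 h, and these overlapped. In WT cells it had 26.8, 20.2 and 22.7 CPM at 48 h against 13.6, 15.04 and 14.0 CPM at 0 h, with no overlap. It was called higher in WT (log2 change 0.71 ± 0.12 SE, edgeR adjusted p = 3.02e-05) and not in CKO (0.17 ± 0.12, edgeR adjusted p = 0.211). The difference between these responses, -0.54 ± 0.17, did not pass either (edgeR adjusted p = 0.153, unadjusted p = 0.00575).

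Dhps, the first hypusine enzyme, had 29.9, 28.3 and 31.0 CPM in CKO cells at 48 h against 18.7, 17.7 and 19.4 CPM at 0 h. In WT cells it had 34.1, 29.7 and 35.2 CPM at 48 h against 19.3, 19.1 and 20.7 CPM at 0 h. The times were apart in both genotypes, by a log2 change of 0.68 ± 0.09 (SE) in CKO and 0.74 ± 0.09 in WT (edgeR adjusted p = 1.74e-06 and 3.74e-07).

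Srm rose more than Sms, and Odc1 rose while Oaz1 and Amd1 did not, and the ratios of these genes within each library differed between the times. The ratio of Srm to Sms counts was 0.840 ± 0.032 in CKO and 0.971 ± 0.021 in WT at 48 h, against 0.189 ± 0.033 in CKO and 0.162 ± 0.014 in WT at 0 h (SD, n = 3 each). The ratio of Odc1 to Oaz1 was 4.62 ± 0.25 in CKO and 3.57 ± 0.34 in WT at 48 h, against 2.24 ± 0.10 in CKO and 2.03 ± 0.21 in WT at 0 h. The ratio of Odc1 to Amd1 was 5.45 ± 0.15 in CKO and 4.36 ± 0.30 in WT at 48 h, and 2.11 ± 0.05 in CKO and 2.10 ± 0.22 in WT at 0 h. All 12 libraries kept the times apart in these 3 ratios. Of single genes tested, 81.0% in CKO and 79.4% in WT did not overlap between the times. No such share was counted for ratios. Azin1 over Oaz1 was 1.27 ± 0.08 in CKO and 1.26 ± 0.14 in WT at 48 h, against 0.876 ± 0.054 in CKO and 0.853 ± 0.063 in WT at 0 h. This ratio kept the times apart too. These are ratios of counts that are not corrected for gene length, so only their change between groups can be read.

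**Figure D2:**
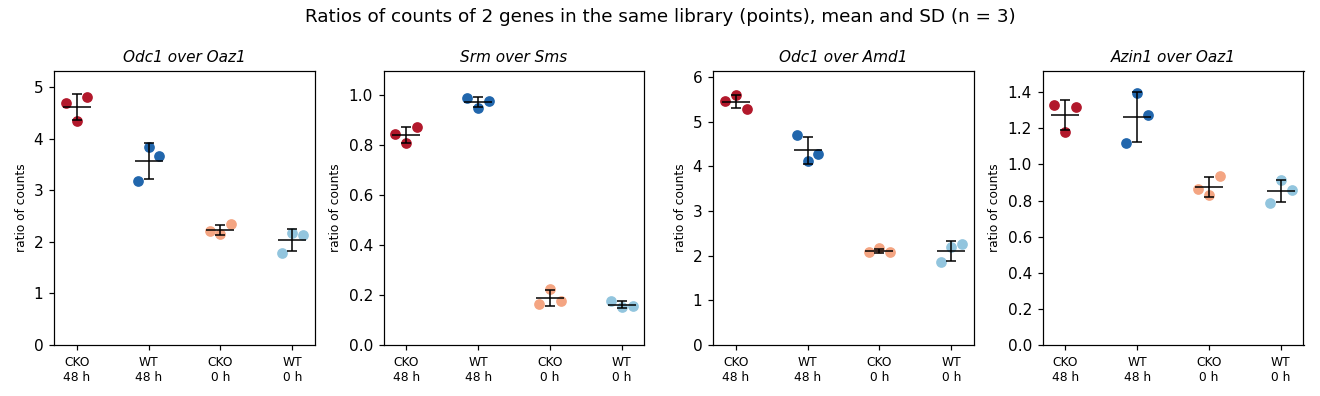
Ratio of the counts of 2 polyamine genes within each library (points), with the group mean and SD (n = 3), in the order CKO 48 h, WT 48 h, CKO 0 h, WT 0 h, on axes from 0. Odc1 over Oaz1 averages 4.62 in CKO and 3.57 in WT at 48 h, and 2.24 in CKO and 2.03 in WT at 0 h. For this ratio and Odc1 over Amd1, which share Odc1, every CKO library at 48 h lies above every WT library at 48 h. For Srm over Sms every CKO library at 48 h lies below. Of single genes tested, 23.7% did not overlap in this comparison, and no such share was counted for ratios.

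The 10 genes together took 2193 ± 27.5 CPM in CKO and 2070 ± 33.0 CPM in WT at 48 h, against 1421 ± 21.7 CPM in CKO and 1382 ± 33.8 CPM in WT at 0 h (SD, n = 3 each). Odc1 alone made up 43.1% of this sum in CKO and 37.9% in WT at 48 h, and 33.3% in CKO and 31.9% in WT at 0 h. The spread between libraries of a group was small for most genes, with coefficients of variation of 1.49% to 14.3% for 38 of the 40 gene and group pairs. The others were Oaz2 in WT at 48 h (24.7%) and Srm in CKO at 0 h (21.1%).

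Per kilobase of annotated exon, Odc1 had the highest level in all 4 groups, at 278 ± 4.1 in CKO and 231 ± 7.2 in WT at 48 h, and 139 ± 2.3 in CKO and 130 ± 10.8 in WT at 0 h (CPM per kilobase, SD, n = 3). Srm stood second at 48 h, at 117 ± 5.2 in CKO and 119 ± 3.2 in WT, and seventh at 0 h, at 12.5 ± 2.6 in CKO and 10.6 ± 0.48 in WT. After them at 48 h came Oaz1 (80.2 in CKO, 86.4 in WT), then Amd1 (49.0, 51.0), Sat1 (45.5, 51.6), Azin1 (41.7, 44.4) and Sms (37.2, 32.7), then Dhps (12.8, 14.2), Oaz2 (6.64, 6.59) and Smox (5.00, 5.97). At 0 h the order in CKO after Odc1 was Oaz1 (83.0), Amd1 (63.5), Sat1 (48.7), Azin1 (29.7), Sms (17.6), Srm (12.5), Oaz2 (9.21), Dhps (8.0) and Smox (4.44). WT at 0 h gave 85.1, 59.4, 53.1, 29.6 and 17.5 for Oaz1, Amd1, Sat1, Azin1 and Sms, and 8.49, 7.94 and 3.65 for Dhps, Oaz2 and Smox. In WT at 48 h Sat1 stood above Amd1. Neighbours whose mean ± SD overlapped were Sat1 with Amd1 and Oaz2 with Smox in WT at 48 h, Srm with Oaz2 in CKO at 0 h, and Dhps with Oaz2 in WT at 0 h. The order depends on the length taken: per kilobase of the longest coding transcript, Oaz1 stood above Srm at 48 h (192 against 140 in CKO, 206 against 142 in WT) and above Odc1 in WT at 0 h (203 against 200 per kilobase). By this length Sat1 stood above Amd1 in all 4 groups. In CKO at 48 h Sms (60.1) stood above Amd1 (54.2) and Azin1 (53.6), and in WT at 48 h Azin1 (57.0) stood above Amd1 (56.4). In WT at 0 h Srm (12.7) stood below Dhps (14.8) and Oaz2 (12.9).

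Between genotypes at 48 h, Odc1 was the 1 polyamine gene that passed the test, and it was higher in CKO cells. All 3 CKO libraries, 934 CPM or more, exceeded all 3 WT libraries, 808 CPM or less, by 1.21-fold (log2 change 0.27 ± 0.06 SE, edgeR adjusted p = 0.0108). Among all genes tested 2.35% were called higher and 2.19% lower in this comparison, and 0.207% higher when a log2 change of at least 1 was asked for, which Odc1 did not reach. The size of the difference was steady, but the call was not: without CKO 48 h replicate 1 the edgeR adjusted p was 0.0510, and without CKO 48 h replicate 3 it was 0.0756. It was 0.00394, at a log2 change of 0.24, without WT replicate 1 of both times. At 0 h Odc1 had a log2 difference of 0.10 (95% interval -0.02 to 0.23, edgeR adjusted p = 0.357), and the response of CKO minus that of WT was 0.17 (-0.01 to 0.34, edgeR adjusted p = 0.431), so a difference between the times was not shown.

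Sms also had all 3 CKO libraries above all 3 WT libraries at 48 h, at 224 ± 3.5 CPM in CKO and 196 ± 3.9 CPM in WT (SD, n = 3 each), a log2 difference of 0.19 ± 0.06 (SE) that did not pass the threshold (edgeR adjusted p = 0.0737). It passed with DESeq2 (adjusted p = 0.0160) and with library totals in place of TMM (0.0479), and with Sms-ps added to it the edgeR adjusted p was 0.0556. Sat1 and Azin1 had all 3 CKO libraries below all 3 WT libraries, at log2 differences of -0.18 (95% interval -0.34 to -0.02, edgeR adjusted p = 0.214) and -0.09 (-0.20 to 0.03, edgeR adjusted p = 0.466). For Sat1 the gap was narrow, with the highest CKO library at 129.4 CPM and the lowest WT library at 129.7 CPM. WT replicate 1, which stood apart, was its highest library at 160.3 CPM. Odc1, Sms, Sat1 and Azin1, 4 genes of 10 without overlap, stand beside 23.7% of all genes tested. Of the other 6, Smox had the widest log2 difference, -0.26 (-0.51 to -0.01, edgeR adjusted p = 0.284), followed by Dhps at -0.15 and Oaz1 at -0.11, while Amd1, Srm and Oaz2 lay within 0.06 of 0 on that scale. No polyamine gene was called lower by edgeR or by DESeq2. At an unadjusted p under 0.05, 2 were lower (Sat1 and Smox) and 2 higher (Odc1 and Sms). The share of all genes at that threshold was not counted.

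At 0 h no polyamine gene was called between the genotypes by edgeR, nor by DESeq2, where 4.10% of all genes tested were called higher and 3.38% lower in CKO by edgeR. At an unadjusted p under 0.05, 2 were higher in CKO, and the share of all genes at that threshold was not counted. Srm had 20.04 ± 4.2 CPM in CKO and 17.0 ± 0.77 CPM in WT (SD, n = 3 each), a log2 difference of 0.24 (95% interval 0.02 to 0.47, edgeR adjusted p = 0.203), which passed without CKO 0 h replicate 1, its lowest CKO library (edgeR adjusted p = 0.0444), and was 0.06 without CKO 0 h replicate 2, its highest (0.759). Smox had 17.3 ± 1.8 CPM in CKO and 14.2 ± 0.73 CPM in WT, a log2 difference of 0.28 (0.02 to 0.54, edgeR adjusted p = 0.196). Smox, Amd1 and Oaz2 had all CKO libraries above all WT libraries, 3 of 10 genes beside 24.6% of all genes tested. Odc1, Sms, Azin1, Oaz1, Dhps and Sat1 had overlapping libraries and log2 differences from -0.12 (Sat1) to 0.10 (Odc1).

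The test of whether the response, the change from 0 h to 48 h, differed by genotype was passed by 0 of the 10 genes, in edgeR and in DESeq2, where 0.609% of all genes tested were called higher and 0.772% lower in CKO by edgeR. At an unadjusted p under 0.05 there were 2: Sms, with the CKO response above that of WT by 0.18 on the log2 scale (95% interval 0.00 to 0.35), and Smox, with the CKO response below by 0.54 (interval -0.90 to -0.18). The other 8 estimates ran from -0.26 (Srm) to 0.17 (Odc1). The share of all genes at an unadjusted p under 0.05 was not counted.

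**Figure D3:**
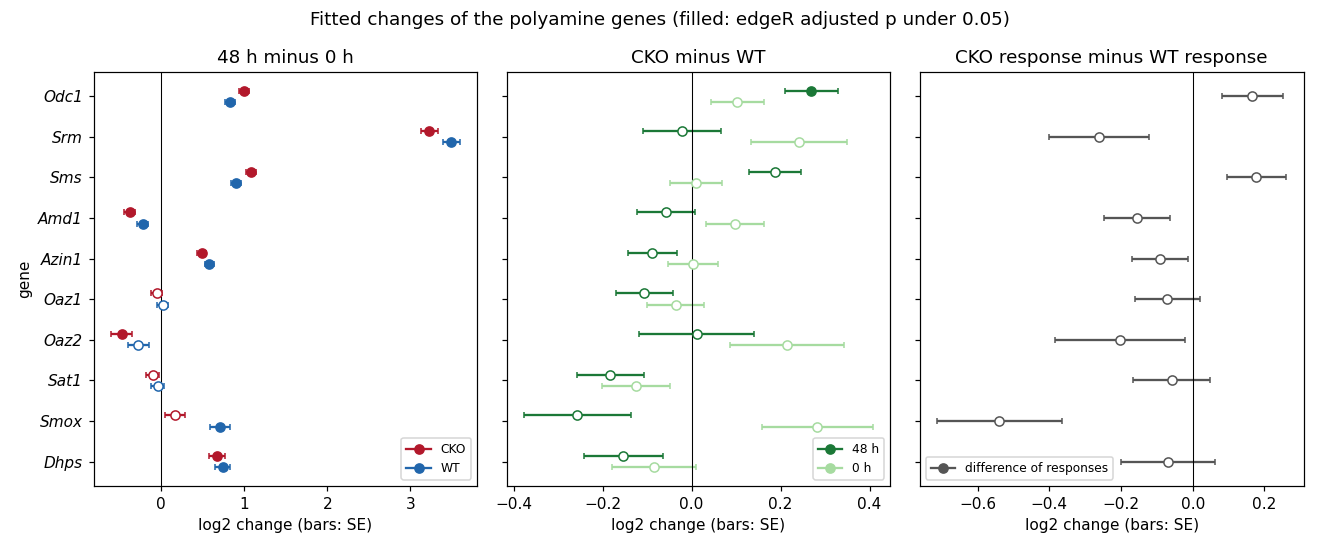
Fitted log2 changes of the 10 polyamine genes with their SE (bars) for 48 h minus 0 h in CKO and WT (left), CKO minus WT at 48 h and 0 h (middle) and the CKO response minus the WT response (right), each panel on its own axis; filled points have an edgeR adjusted p under 0.05. Srm, at 3.23 in CKO and 3.49 in WT, lies far right of the rest, and Odc1 at 48 h, at 0.27, is the 1 filled point between genotypes.

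The wider pathway was read from lists of 26 further genes, of which 24 had a count and 20 were tested. At 48 h against 0 h, 11 were higher and 5 lower in CKO, and 12 higher and 4 lower in WT. The share called, 16 of 20 in each genotype, is again close to that of all genes tested.

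On the side that uses spermidine, the RNA of Eif5a, whose protein receives hypusine, rose strongly. It averaged 1512 ± 4.1 CPM in CKO and 1655 ± 74.1 CPM in WT at 48 h, against 332.5 ± 18.5 CPM in CKO and 336 ± 13.2 CPM in WT at 0 h (SD, n = 3 each), a log2 change of 2.19 in CKO and 2.30 in WT (edgeR adjusted p = 4.43e-17 and 2.18e-17). Its relative Eif5a2 rose by 1.14 in CKO and 0.77 in WT on the log2 scale. Dohh, the enzyme that finishes hypusine, had a log2 change of 0.19 in CKO (edgeR adjusted p = 0.381) and 0.47 in WT (0.0347), and the difference of these responses, -0.28, did not pass (0.756). The WT call was lost without any 1 of 4 WT libraries: WT 0 h replicate 1 (0.127) or 2 (0.0555), or WT 48 h replicate 1 (0.108) or 3 (0.0659). Without WT replicate 1 of both times its log2 change was 0.26. Of these 3 genes, 2 were called higher in CKO and 3 in WT, beside 38.5% and 38.7% of all genes tested.

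Among the suppliers of the aminopropyl donor, Ahcy, which clears S-adenosylhomocysteine, had 239 ± 3.6 CPM in CKO and 253 ± 9.5 CPM in WT at 48 h, against 47.2 ± 3.0 CPM in CKO and 48.0 ± 1.3 CPM in WT at 0 h, a log2 change of 2.34 in CKO and 2.40 in WT (edgeR adjusted p = 3.41e-17 and 2.25e-17). The RNA of Mat2a, whose protein makes S-adenosylmethionine, had log2 changes of 0.70 in CKO and 0.56 in WT. That of Mat2b, which encodes its regulatory subunit, had log2 changes of -0.79 in CKO and -0.76 in WT. Mat1a, the liver form, had 0 counts in all 12 libraries, which allows up to 0.0136 CPM (3 counts over all libraries, counting error only).

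Of 5 genes that salvage methylthioadenosine, the by-product of Srm and Sms, 3 were called higher and 1 lower in each genotype, where 38.5% (CKO) and 38.7% (WT) of all genes tested were called higher. Mtap, the first step, rose by 1.49 in CKO and 1.25 in WT, Apip by 1.35 and 1.83, and Enoph1 by 0.75 and 0.76 on the log2 scale. Adi1, a later step, was lower by a small amount (-0.26 in CKO, edgeR adjusted p = 0.00855, and -0.25 in WT, 0.0109). Its CKO call was lost without CKO 48 h replicate 2 (-0.21, 0.0559), and its WT call without WT 0 h replicate 1 (-0.20, 0.0568) or WT 48 h replicate 1 (-0.16, 0.0873), or both (-0.13, 0.215). Mri1 was not called (edgeR adjusted p = 0.180 in CKO and 0.304 in WT).

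Of the genes around ornithine, Oat, which makes or consumes it in mitochondria, rose by 0.61 in CKO and 0.49 in WT. Arg1, the arginase of liver and myeloid cells, was at most 2.38 CPM in any library. It was lower at 48 h, by log2 changes of -1.84 in CKO and -1.61 in WT. Most myeloid markers were called lower too, and a link between them and Arg1 was not tested. Without WT 0 h replicate 2 the WT value of Arg1 was -0.999 and not called (edgeR adjusted p = 0.124). Arg2 was not called. Azin2, a second antizyme inhibitor, had 49 counts over the 3 CKO libraries at 48 h against 1 at 0 h, a 43.2-fold ratio with a 95% counting interval of 7.39 to 1740, and 51 counts against 7 in WT, a 6.53-fold ratio (2.95 to 17.1). Azin2 was called higher at 48 h in both genotypes (log2 change 5.03 in CKO and 2.65 in WT, edgeR adjusted p = 3.87e-05 and 0.000952). Agmat had 0 counts in all 12 libraries, with the same limit as Mat1a.

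Paox, which oxidises the acetylated polyamines that Sat1 makes, rose by 1.36 in CKO and 1.5 in WT on the log2 scale (15.8 ± 1.0 CPM in CKO and 15.4 ± 0.48 CPM in WT at 48 h, against 6.16 ± 0.87 CPM in CKO and 5.45 ± 0.86 CPM in WT at 0 h; SD, n = 3 each). Oaz3, an antizyme known from testis, was at most 1.43 CPM and lower at 48 h, by -1.81 in CKO and -2.31 in WT. Its CKO call was lost without CKO 0 h replicate 1 (edgeR adjusted p = 0.0522) or CKO 48 h replicate 2 (0.0560), and its WT change was -3.68 without WT 48 h replicate 2. Sat2 and Satl1 had too few counts to test.

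Of the transporters, Atp13a3, a polyamine pump of the endosome, rose by 0.62 in CKO and 0.42 in WT on the log2 scale, and Atp13a2, its lysosomal relative, was not called. Slc3a2, the heavy chain of several amino acid transporters that has also been tied to polyamine export, had 181, 167 and 168 CPM in CKO cells at 48 h against 287, 266 and 287 CPM at 0 h, and 203, 167 and 185 CPM in WT cells at 48 h against 226, 189 and 203 CPM at 0 h. The times were apart in CKO (log2 change -0.70 ± 0.08 SE, edgeR adjusted p = 5.91e-08) and overlapped in WT (-0.15 ± 0.08, edgeR adjusted p = 0.0741). At 0 h it was higher in CKO than in WT by 0.44 (edgeR adjusted p = 0.000755), and the response differed by -0.55 ± 0.11 (edgeR adjusted p = 0.0102). Atp13a4 and Slc18b1 had too few counts to test. Between genotypes, the other call in these lists was Mtap at 0 h, at 41.6 ± 3.8 CPM in CKO and 53.0 ± 2.4 CPM in WT (SD, n = 3 each), a log2 difference of -0.35 (edgeR adjusted p = 0.00693). None of the 20 was called at 48 h by edgeR or DESeq2. Of all genes tested, edgeR called 2.35% higher and 2.19% lower in that comparison. At an unadjusted p under 0.05, 3 of the 20 were lower and 0 higher at 48 h. The share of all genes at that threshold was not counted. At 0 h, 1 of the 20 was called higher and 1 lower in CKO, beside 4.10% and 3.38% of all genes tested. For the response, 0 were called higher and 1 lower, beside 0.609% and 0.772%.

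**Figure D4:**
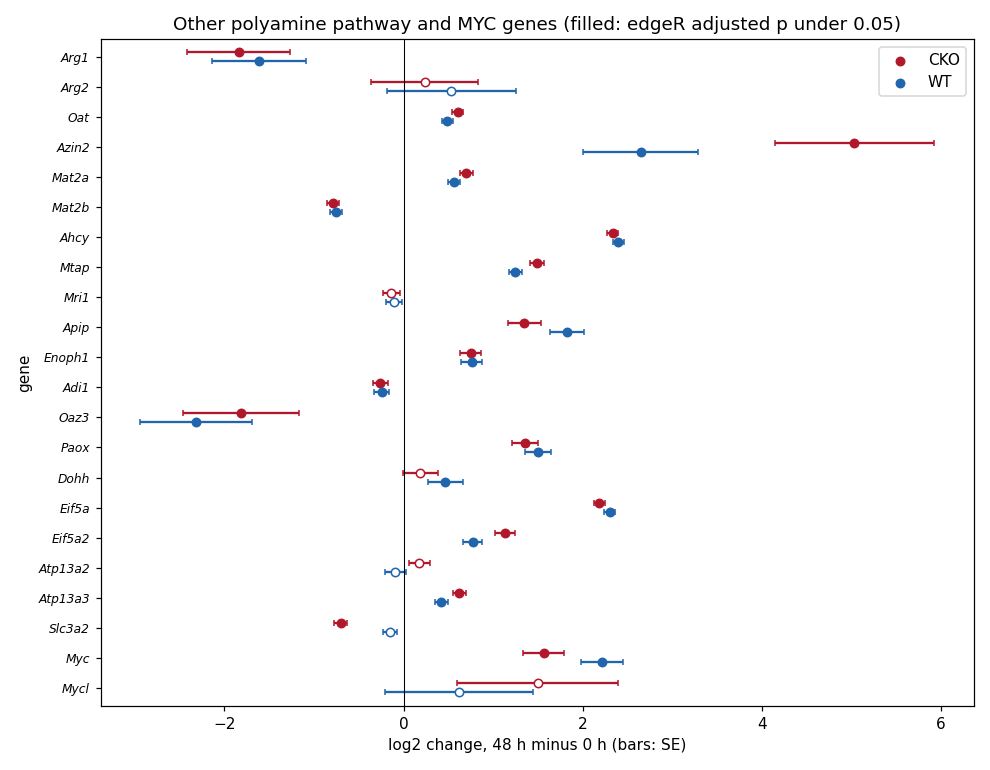
Fitted log2 change from 0 h to 48 h (bars: SE) in CKO (red) and WT (blue) of the 20 tested genes around the polyamine pathway and of Myc and Mycl; filled points have an edgeR adjusted p under 0.05. Azin2, which has few counts, lies furthest right, at 5.03 in CKO and 2.65 in WT. Eif5a and Ahcy also stand above 2 in both genotypes, Arg1 and Oaz3 below -1.5, and Slc3a2 is the gene whose response was called different between genotypes.

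Myc, the known activator of Odc1, had 549.8, 533 and 549 CPM in CKO cells at 48 h against 213, 128 and 212 CPM at 0 h, and 599, 532 and 545 CPM in WT cells at 48 h against 158, 94.2 and 109 CPM at 0 h. The times were apart in both genotypes (log2 change 1.56 ± 0.23 SE in CKO and 2.21 ± 0.24 in WT, edgeR adjusted p = 0.000209 and 2.12e-05), and the log2 difference between genotypes passed the threshold neither at 48 h (-0.04, edgeR adjusted p = 0.969) nor at 0 h (0.61, 0.171). Of its relatives, Mycl was not called and Mycn had too few counts to test.

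The core letters of the motif that MYC binds, CACGTG, were searched in the 300 bases around the gene starts that RefSeq gives (250 before, 50 after; GRCm38.p6). Windows were found for 8 of the 10 genes, 9 windows in all, and none for Srm or Azin1. The letters read the same on both strands. They occur in 1 of the 9 windows, beside 7.15% of 32851 windows of all genes. That window is one of a pair listed for Sms, and the match lies 196 bases before the gene start. The part upstream of the start is shown with the match in capitals (chrX:157492288-157492537, minus strand):
Sms: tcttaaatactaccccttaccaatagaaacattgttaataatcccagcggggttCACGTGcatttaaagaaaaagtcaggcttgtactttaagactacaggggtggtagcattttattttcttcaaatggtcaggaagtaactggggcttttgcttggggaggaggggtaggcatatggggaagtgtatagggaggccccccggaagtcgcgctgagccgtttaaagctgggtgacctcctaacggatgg
The upstream part of the Odc1 window (chr12:17544623-17544793, plus strand) is shown beside it because Odc1 was the gene called between genotypes at 48 h, and it does not hold these letters:
Odc1: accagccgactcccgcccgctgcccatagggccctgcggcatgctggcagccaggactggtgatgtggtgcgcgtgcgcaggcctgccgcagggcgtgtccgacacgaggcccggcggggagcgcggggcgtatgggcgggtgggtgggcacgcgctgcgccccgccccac
A match is a description of letters, not of binding, and says nothing about sites outside these windows.

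Across the 12 libraries, the genes whose log2 CPM followed each polyamine gene most closely, among 15643 compared, are given as a description only, since the libraries fall into 2 times and any gene that moved over time is alike to many others. Srm was most like Rars and Srp72 (Pearson r = 0.999 for each), Odc1 like Mcu and Rps2 (0.994 for each), and Sms like Strbp (0.997) and Plagl2 (0.996). Azin1 was most like 6030458C11Rik (0.995) and Dhrs7b (0.994), Dhps like Cpsf4 (0.991) and Tm2d3 (0.990), and Amd1 like Mcoln3 (0.978) and Rc3h1 (0.968). The remaining 4 had looser neighbours: Oaz1 followed Rpl28 (0.919) and 2410015M20Rik (0.917), Oaz2 Ubald2 (0.965) and Gm9923 (0.932), Sat1 Rps25 (0.953) and Rpl32 (0.952), and Smox Npdc1 (0.952) and Nt5c (0.945). Oaz1 and Sat1 were not called over time. They and their neighbours each had their highest level of all 12 libraries in WT 48 h replicate 1, which stood apart. The weight of that library in these r values was not tested.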

How the data were processed

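Counts of reads per Ensembl gene ID, raw and whole, are what the authors deposited for the 12 libraries. Per the labels' protocols, TRIzol was used for RNA and a TruSeq Stranded mRNA kit for the libraries. HISAT2 2.2.1, cutadapt, DESeq2 and the genome build GRCm39 are named in the submitters' processing notes, in roles not stated. Not given in the sources used here are the counter, its annotation release and its strand setting. The reads of near-identical copies or antisense genes could therefore sit at either gene.

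Counts were TMM-scaled and fitted with edgeR 4.0.16 (robust quasi-likelihood, 1 mean per group, 8 residual degrees of freedom) in R 4.3.3, on all 12 libraries and the 15935 genes that filterByExpr kept. P-values are two-sided and Benjamini-Hochberg adjusted over these genes, and intervals cover 95%. The common biological coefficient of variation was 0.0999. Lengths and copies came from GENCODE M21 (GRCm38) by ID, copies were aligned with BLAST 2.17.0, and promoters came from RefSeq.

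All 10 polyamine genes, Senp1, the pathway genes called in any of 5 contrasts, annotated copies and the 2 genes most like each polyamine gene were named. The members and lists were chosen with earlier results of these data known. Alternatives were other scalings, filters, DESeq2 1.42.0, replicate blocks, 2-group fits, a log2 change of at least 1, and each library left out. A protein comparison of the paralogs was not run.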

Additional observations from a re-analysis of the deposited data

Results flagged for a closer look

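A test of the difference between genotypes in the response, the change from 0 h to 48 h, was passed by 2 of the named genes. Neither of them is among the 10 polyamine genes. Of all genes tested, edgeR called 0.609% higher and 0.772% lower in this test. The CKO response of Slc3a2 lay below the WT response by a log2 difference of -0.55 (edgeR adjusted p = 0.0102, and between 0.00279 and 0.0402 when each library was left out in turn). Senp1, the targeted gene, had a difference of -0.67 (edgeR adjusted p = 0.000926), with a rise of 0.30 in CKO and of 0.97 in WT on the log2 scale.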

How the results depend on the processing

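Of 1140 log2 values of the polyamine genes under 23 alternatives, 1088 kept their sign and their side of the threshold, 18 lost a call, 11 gained one and 23 changed sign. Most of the lost calls came from the required log2 change of at least 1. That alternative asks a stricter question of the same log2 values, so no sign could change under it. The polyamine genes called lower at 48 h against 0 h in WT, 1 as reported, were 2 with median-of-ratios factors, library totals, the stricter filter, DESeq2 and both replicate blocks, and 0 with no count filter. Those higher in CKO at 48 h were 2 with library totals and DESeq2, and 0 to 1 when each library was left out. Those higher in CKO at 0 h were 0 to 1 when each library was left out. A required log2 change of at least 1 gave 1 higher and 0 lower at 48 h against 0 h in either genotype, and 0 between genotypes at 48 h. The labels do not say whether replicate numbers pair the libraries. Same-numbered libraries deviated together by r of -0.011 to 0.162 over 18 pairs. Of 36 matches, 22 were best with their own number (12 of 12 within a genotype), a hint from the data only. Both replicate blocks, over all groups and within each genotype, changed no call of the polyamine genes but Oaz2 in WT. Values that changed sign were all uncalled. For 48 h against 0 h in WT, Oaz1 was -0.0097 with median-of-ratios factors, -0.014 with library totals, -0.0096 with DESeq2, -0.022 with the stricter filter, and -0.015 to 0.087 with libraries left out. Sat1 was 0.018 with no filter and -0.11 to 0.039 with libraries left out. For CKO minus WT at 48 h, Oaz2 was -0.0079 with no filter and -0.11 to 0.22 with libraries left out, and Srm was -0.060 to 0.0084 with libraries left out. For CKO minus WT at 0 h, Sms was -0.020 and Azin1 -0.023 without WT replicate 1 of both times, and Sms -0.033 to 0.054 and Azin1 -0.037 to 0.022 with single libraries left out. The difference of responses of Sat1 was -0.13 to 0.014. The cause of these shifts was not tested. The fit on only the groups compared gives no difference of responses.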
